A study of Mus musculus with 39 samples.

Results

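The genes described are Ppara and 8 enzymes of mitochondrial fatty acid oxidation, Cpt1a, Cpt1b, Cpt2, Acadvl, Acadl, Acadm, Hadha and Hadhb, in mouse epididymal adipose tissue. They were taken by name: every probe of the array that carries one of these 9 gene names was used, which gave 11 of 40628 probes and 9 of 29411 names. Cpt1a and Cpt1b have 2 probes each, and each gene is represented by its brightest probe, with the other one as a check. The level of a gene is the log2 processed signal minus the 75th percentile of the log2 signals of its array, so that 0 is the level of a probe at that percentile and 1 unit is a doubling.

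The tissue came from C57BL/6J mice, weaned at 3 to 4 weeks of age and divided into 5 feeding groups. The control diet, low in fat (LFC), had 10% of its calories from fat, and the diet high in fat and sucrose (HFC) had 60%. Groups HF5, HF20 and HF75 ate HFC and were given the ethno-botanical formulation KAL-1 at 5, 20 or 75 µg. LFC was sampled at days 1, 6, 10 and 14 and at weeks 0, 3, 6, 9, 12, 15 and 18 (11 arrays), HFC from day 6 on (10 arrays), and each dose at weeks 3 to 18 (6 arrays). Days 1 to 14 and week 0 are called early here and weeks 3 to 18 late. A paper on this feeding experiment counts weeks from day 14, so that day 14 and week 0 are the same feeding time. They were kept here as separate time points. The series record speaks of replicates, yet each diet has a single array at each time point, and nothing in the labels tells if mice were pooled for it. The time points of a diet therefore stood in for replicates, and the p-values measure the spread between time points.

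Mitochondria burn long chain fatty acids in a fixed order of steps. The fatty acid is loaded onto carnitine at the outer membrane (Cpt1a is the form known from liver and many other tissues, Cpt1b the form known from muscle), reloaded onto coenzyme A inside (Cpt2), and then shortened in cycles, each opened by an acyl-CoA dehydrogenase chosen by chain length and, for long chains, finished by the trifunctional protein that Hadha and Hadhb encode. Ppara encodes a nuclear receptor that binds fatty acids and drives the transcription of many of these genes in liver, heart and brown fat, while white fat is better known for storing fat than for burning it.

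Quality differed between arrays. On 37 arrays between 53.7% and 79.6% of spots were well above background, whereas the LFC week 3 and HFC week 12 arrays had 97.1% and 94.5% and many spots marked as outliers, so the main counts and differences are also given without those 2 arrays where their sign or size turned on them. Markers of adipocytes were high throughout (10 of 10 on the array, mean level of the list between 2.49 and 5.46 over the 37 arrays), whereas epididymis markers ranged from -7.98 to 2.51 and were highest on the LFC week 9 array. The 9 members were well above background on all 39 arrays, apart from Acadl on LFC day 1 (an outlier spot, left out of every fit) and Ppara on HF75 week 15. The spot of Acadm was saturated on the LFC and HF75 week 12 arrays and that of Acadvl on these and on LFC day 1, so those levels are lower limits.

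The probes and start regions behind the main observations are shown here. The 2 probes of Cpt1a differed in how consistently HFC was above LFC over the time points, so the first 30 of their 60 bases are printed, 5′ to 3′ and in lower case. Neither stretch occurs in any other probe of the array, and both probes have a GC content of 45%.
Cpt1a, brighter probe: tcttaggactacttgctaacctctgttact
Cpt1a, dimmer probe: cagttccattaagcaacaaaataacagatg

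Hadha and Hadhb lie head to head on chromosome 5, with 272 bases between the annotated genes (RefSeq on GRCm38.p6, Hadha at chr5:30119423-30154980 on the minus strand and Hadhb at chr5:30155253-30184593 on the plus strand). The window of 250 bases before to 50 after the start of Hadhb, chr5:30155003-30155302 on the plus strand, shares 228 bases with the window of Hadha. The shared stretch is in capitals.
Hadhb window: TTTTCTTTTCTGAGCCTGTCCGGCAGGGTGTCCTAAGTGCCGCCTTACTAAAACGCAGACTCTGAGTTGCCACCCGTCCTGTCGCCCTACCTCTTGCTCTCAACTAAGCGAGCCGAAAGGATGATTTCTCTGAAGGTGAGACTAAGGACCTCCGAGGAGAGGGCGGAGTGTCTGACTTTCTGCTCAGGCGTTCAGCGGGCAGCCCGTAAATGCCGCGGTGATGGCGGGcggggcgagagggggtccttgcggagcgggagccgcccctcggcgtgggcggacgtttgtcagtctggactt

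Cpt2 and Acadm had the highest correlation of any pair of members, so their windows are shown as well (RefSeq, GRCm38.p6, both on the minus strand, Cpt2 at chr4:107923540-107923839 and Acadm at chr3:153944594-153944893). Capitals mark AGGTCA, the core letters bound by many nuclear receptors, on either strand. These letters were found once each in the windows of Cpt1a, Acadm and Acadvl and in none of the other 5 of the 8 member windows that were matched. Of all 32851 windows 16.3% held it. The direct repeat AGGTCANAGGTCA, known as a binding site of Ppara with its partner receptor, was in 0 of the 8 windows, both exactly (0.0396% of all windows) and with up to 2 mismatches among its 12 fixed bases on either strand (3.86% of all windows). A match is only a run of letters, and the absence of one covers only these 300 bases.
Cpt2 window: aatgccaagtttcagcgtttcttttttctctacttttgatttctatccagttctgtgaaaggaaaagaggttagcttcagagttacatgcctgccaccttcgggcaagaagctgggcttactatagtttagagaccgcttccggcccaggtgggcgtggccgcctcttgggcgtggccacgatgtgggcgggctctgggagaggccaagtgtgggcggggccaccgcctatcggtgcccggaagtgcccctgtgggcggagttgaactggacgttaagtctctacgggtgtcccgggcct
Acadm window: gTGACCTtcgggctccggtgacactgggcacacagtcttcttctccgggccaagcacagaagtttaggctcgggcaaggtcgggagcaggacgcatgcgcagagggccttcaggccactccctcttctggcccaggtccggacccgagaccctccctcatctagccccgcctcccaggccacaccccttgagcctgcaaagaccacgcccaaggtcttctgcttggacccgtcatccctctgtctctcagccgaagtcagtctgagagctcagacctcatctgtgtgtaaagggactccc

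Levels swung widely from array to array, and 7 of the 9 genes swung together. Between the lowest and the highest of the 37 arrays without the 2 of doubtful quality, Cpt2 differed 12.7-fold, Hadha 7.50-fold, Hadhb 4.34-fold and Cpt1a 3.43-fold on the linear scale, and Acadm at least 8.63-fold, since its highest spot was saturated. In a bulk sample, fewer cells of a type and less RNA per cell cannot be told apart. When the 7 groups (LFC early and late, HFC early and late, and the 3 doses) were ordered by mean, no 2 neighbours in the order of any member differed by more than the larger of their SDs, with or without the 2 arrays. The mean levels below are given with the SD over arrays, with n = 5 for LFC early (4 for Acadl), 4 for HFC early and 6 for each other group.

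**Figure D1:**
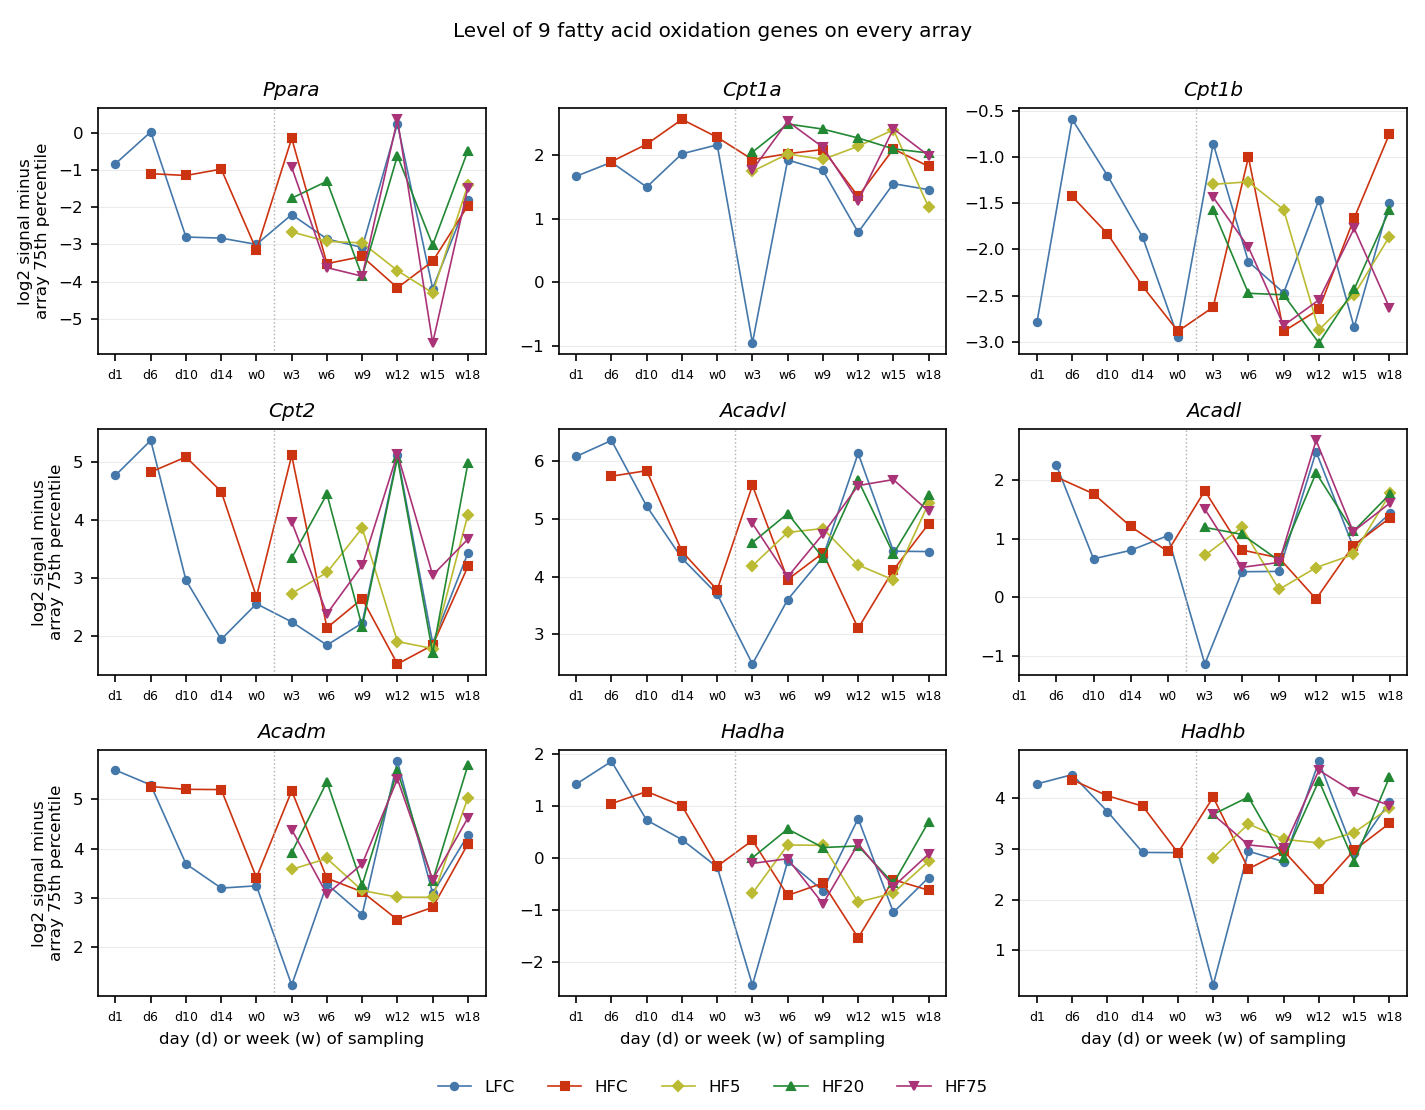
Level of each of the 9 genes on every array (log2 signal minus the array's 75th percentile) against the time of sampling, 1 line per diet. The dotted line separates early from late. Acadl is missing on LFC day 1. The curves of Cpt2, Acadm, Acadl, Acadvl, Hadhb and Ppara rise and fall at the same arrays, such as LFC week 12 and HFC week 3, while Cpt1a and Cpt1b do not follow them.

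Ppara, the receptor, had its highest levels on HF75 week 12 (0.37), LFC week 12 (0.25) and LFC day 6 (0.04) and its lowest on HF75 week 15 (-5.66, not well above background). Its mean level was -1.88 ± 1.40 for LFC early, -1.59 ± 1.04 for HFC early, -2.31 ± 1.50 for LFC late, -2.76 ± 1.48 for HFC late, -2.99 ± 0.99 for HF5, -1.83 ± 1.35 for HF20 and -2.52 ± 2.23 for HF75. The order ran from HFC early at the top to HF5 at the bottom, and every group overlapped every other. On HFC the 3 arrays of days 6 to 14 lay at -1.09, -1.14 and -0.97 while the week 0 array lay at -3.15.

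Cpt1a, which loads fatty acids onto carnitine, had the smallest SD of the 9 genes over the 37 arrays (0.38, with 0.62 for Hadhb next). Its mean level was 1.85 ± 0.27 for LFC early, 2.23 ± 0.27 for HFC early, 1.09 ± 1.07 for LFC late, 1.89 ± 0.28 for HFC late, 1.91 ± 0.42 for HF5, 2.23 ± 0.20 for HF20 and 2.02 ± 0.46 for HF75. LFC late was the lowest group, and without the week 3 array it had a mean of 1.50 ± 0.44 (n = 5) and was still the lowest. Over all 39 arrays the low values were LFC week 3 (-0.95) and LFC week 12 (0.79).

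Cpt1b, the muscle form, had its highest levels on LFC day 6 (-0.60), HFC week 18 (-0.75) and LFC week 3 (-0.86) and its lowest on HF20 week 12 (-3.01). Its mean level lay between -2.26 ± 0.57 for HF20 and -1.88 ± 0.74 for LFC late, and all 7 groups overlapped. The Cpt1b locus is covered by an annotated read-through from the neighbouring gene Chkb, so that its probes could also report such a transcript.

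Cpt2, the inner membrane step, spanned almost the same range in several diets. On HFC late it ran from 1.51 to 5.11 with a median of 2.39, on LFC late from 1.84 to 5.11 with a median of 2.23, and on HF20 from 1.70 to 5.07 with a median of 3.89. HFC early held 4.82, 5.08, 4.49 and 2.67 at days 6, 10 and 14 and week 0, and LFC early held 4.77, 5.37, 2.96, 1.94 and 2.55 at days 1, 6, 10 and 14 and week 0. The early arrays were thus high at days 6, 10 and 14 on HFC and at days 1 and 6 on LFC, and lower at the others. Day 14 and week 0, which differed on HFC (4.49 and 2.67), are the same feeding time. The mean level was 2.91 ± 0.96 for HF5 and 3.57 ± 0.94 for HF75.

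Among the acyl-CoA dehydrogenases, Acadvl takes very long, Acadl long and Acadm medium chains. Acadm had mean levels of 4.20 ± 1.15 for LFC early, 4.77 ± 0.90 for HFC early, 3.38 ± 1.53 for LFC late, 3.53 ± 0.97 for HFC late, 3.60 ± 0.77 for HF5, 4.53 ± 1.14 for HF20 and 4.09 ± 0.88 for HF75. Its HFC early arrays lay at 5.26, 5.20, 5.20 and 3.41, so that week 0 stood apart from days 6, 10 and 14. Acadvl lay between 4.24 ± 1.20 for LFC late and 5.14 ± 1.14 for LFC early, and Acadl between 0.75 ± 1.21 for LFC late and 1.46 ± 0.57 for HFC early. For all 3 dehydrogenases LFC late was the group with the lowest mean, and the LFC week 3 array was its lowest array (1.23 for Acadm, 2.48 for Acadvl and -1.14 for Acadl). Without that array LFC late was the lowest of the 7 groups for none of the 3.

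Hadha and Hadhb encode the subunits of the trifunctional protein, which carries out the last 3 steps of each cycle on long chains. Hadha had mean levels of 0.84 ± 0.82 for LFC early, 0.80 ± 0.65 for HFC early, -0.63 ± 1.08 for LFC late, -0.57 ± 0.60 for HFC late, -0.29 ± 0.50 for HF5, 0.20 ± 0.42 for HF20 and -0.20 ± 0.43 for HF75. Both early groups stood at the top of its order. Hadhb had mean levels of 3.67 ± 0.73 and 3.79 ± 0.62 for LFC and HFC early, 2.93 ± 1.49 and 3.05 ± 0.64 for LFC and HFC late, and 3.29 ± 0.34, 3.67 ± 0.74 and 3.72 ± 0.60 for HF5, HF20 and HF75. The correlation of the 2 subunits over the 37 arrays was 0.68, lower than that of Hadhb with Cpt2 (0.89), Acadm (0.89) or Acadvl (0.87).

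The comparison of HFC with LFC asks what the high fat diet does to these genes. No member passed the test at 10 time points (0 of 9 at an adjusted p under 0.05, as for all probes, 0 of 29168 or 0%), and 7 of 9 had a higher mean on HFC. Without the 2 arrays 9 of 9 had, since Cpt1b (-0.22 with all arrays) was then at 0.09 and Ppara (-0.05) at 0.24. The median difference of the members was 0.18, beside 0.03 for all probes. At an unadjusted p under 0.05 there was 1 member, Cpt1a, beside 3.05% of all probes. Differences of the other 8 ran from -0.22 (Cpt1b, SE 0.30) to 0.45 (Acadm, SE 0.52), with the 95% interval of Acadm from -0.67 to 1.57. The interval of Cpt2 ran from -0.74 to 1.54 and that of Ppara from -1.20 to 1.11. Over weeks 3 to 18 no member passed either (0 of 31450 probes, 0%), 6 of 9 were higher, the median was 0.11 beside 0.06, and Cpt1a was again the member with an unadjusted p under 0.05, beside 2.31% of probes. The sign of the median rested on single weeks: without week 3 it was -0.10 over the 9 time points left and -0.49 over the late weeks, and without week 12 it was 0.48 and 0.66.

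Cpt1a was higher on HFC than on LFC at 10 of 10 time points. On LFC its level was 1.89, 1.50, 2.03 and 2.17 at days 6, 10 and 14 and week 0, then -0.95, 1.93, 1.76, 0.79, 1.56 and 1.46 at weeks 3, 6, 9, 12, 15 and 18. On HFC it was 1.90, 2.18, 2.57 and 2.29, then 1.94, 2.03, 2.09, 1.36, 2.10 and 1.83. The gap was smallest at day 6 (0.01) and week 6 (0.10) and largest at week 3 (2.89), where the LFC array is one of the 2 of doubtful quality. The mean difference was 0.61 (SE 0.26, 1.53-fold), with a 95% interval from 0.04 to 1.18 (limma, p = 0.0367, adjusted p = 0.998). Without the 2 arrays it was 0.34 (SE 0.13, p = 0.0292, adjusted p = 0.708). Over weeks 3 to 18 it was 0.80 (SE 0.31, p = 0.0155, adjusted p = 1.00) and 0.47 (SE 0.23, p = 0.0497) without the 2 arrays. Of all probes tested, 0.0377% had a value and were higher at every one of the 10 time points, and 0.515% in the 6 late weeks. Probes with no value at some time point could not be counted but stay in these totals, so both shares are lower limits. Such gaps come from outlier spots, of which LFC week 3 had 16431 and HFC week 12 had 10531. The count of time points with a higher Cpt1a was looked at after the values had been seen.

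The dimmer probe of Cpt1a was not higher on HFC at every time point. It was higher on HFC at 5 of the 9 time points where both arrays gave a value (the LFC week 3 spot was an outlier and is missing), by 2.01 at week 12 and 1.39 at week 15, and lower at day 6, day 10, week 6 and week 18. Its mean difference, without the week 3 pair, was 0.38 (SE 0.28, limma, adjusted p = 0.998). The brighter probe without week 3 had 0.36, so that the means of the 2 probes were alike. Over weeks 3 to 18 the dimmer probe had 0.67 (SE 0.42). Without the 2 arrays of doubtful quality its difference over the 10 time points was 0.18 (SE 0.21). Over all groups the level of the dimmer probe lay between -3.51 and -0.33. The mean of the probes present on an array gave 0.45 (SE 0.20, limma, p = 0.0386, adjusted p = 0.998). On LFC week 3 this was the brighter probe alone, which lay at a higher level than the dimmer one. The value and its p are therefore not those of a 2-probe mean at week 3. For Cpt1b the 2 probes had the same sign in this comparison (-0.22 and -0.16), with HFC higher in 4 of 10 pairs for each, but both were positive without the 2 arrays (0.09 and 0.06).

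**Figure D2:**
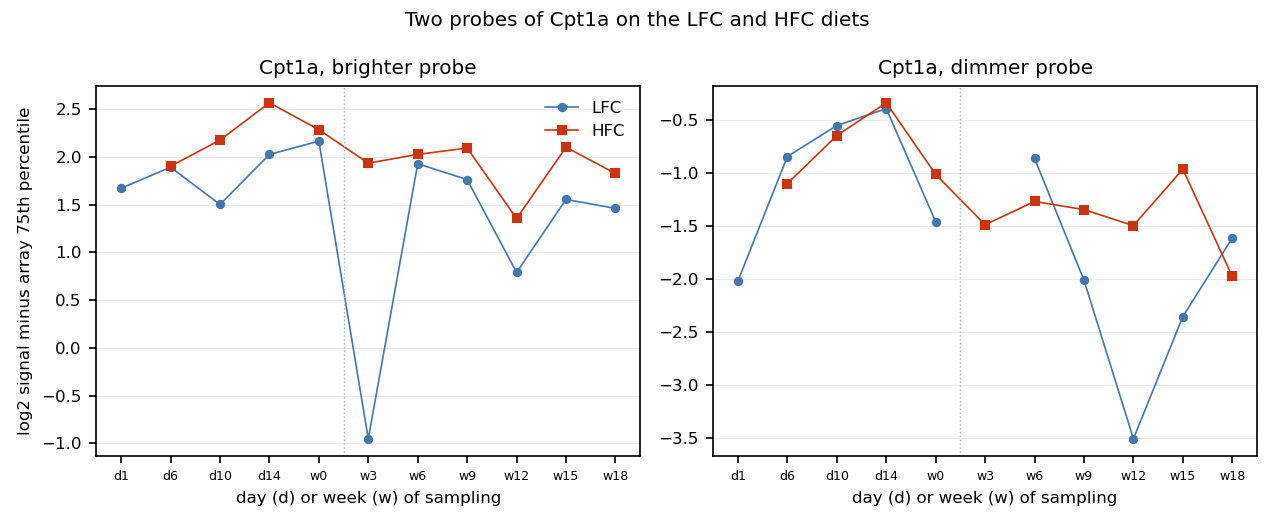
Level of the 2 probes of Cpt1a (log2 signal minus the array's 75th percentile) on the LFC and HFC arrays against the time of sampling, 1 point per array. The HFC point lies above the LFC point at all 10 shared time points for the brighter probe and at 5 of 9 for the dimmer probe.

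The comparison of late with early arrays asks how the genes changed with time on a diet. Within LFC 8 of 9 members had a lower mean late, with a median difference of -0.74 beside -0.09 for all probes (-0.39, with 9 of 9 lower, without the week 3 array), and none passed the test, whereas 149 of 30418 probes (0.490%) did. Within HFC 8 of 9 had a lower mean late, with a median of -0.75 beside 0.02, and 0 of 9 passed (0 of 29397 probes, 0%). At an unadjusted p under 0.05 there were Hadha on LFC (1 of 9, beside 5.52% of all probes) and Hadha and Acadm on HFC (2 of 9, beside 17.3%). The arrays of days 1 to 14 were all scanned after those of weeks 0 to 18, so that scan period and time cannot be told apart for them. The exception is day 14, which is the same feeding time as week 0. The mean of the members, each centred on its own mean, was 0.52 at day 14 and -0.56 at week 0 on HFC. On LFC it was -0.43 and -0.58. The part of the scan period in this was not tested. Week 0 was the early time point scanned in the same period as the late weeks, and against it alone the direction turned for most members. On HFC 6 of the 8 lower members then had a higher mean late (Cpt2 0.07, Acadm 0.11, Hadhb 0.12, Acadl 0.14, Ppara 0.39 and Acadvl 0.58), with a median of 0.12 over the 9 genes. On LFC 5 of the 8 did (Hadhb 0.00, Acadm 0.14, Cpt2 0.23, Acadvl 0.54 and Ppara 0.69), with a median of 0.14. The lower late means of these genes thus rested on the arrays of days 1 to 14, and the SEs against a single early array were between 0.67 and 1.39.

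Hadha had the largest drop on LFC and the smallest p on both diets. On LFC its early arrays held 1.43, 1.86, 0.73, 0.36 and -0.17, and its late arrays ran from -2.44 to 0.76 with a median of -0.50. On HFC the early arrays held 1.05, 1.28, 1.01 and -0.16, and the late arrays ran from -1.53 to 0.34 with a median of -0.55. On HFC the arrays of days 6, 10 and 14 lay above every late array and week 0 lay among the late ones. On LFC the arrays of days 1 and 6 lay above every late array, and days 10 and 14 and week 0 lay below the highest late one (week 12). Hadha fell by 1.47 on LFC (SE 0.56, p = 0.0209, adjusted p = 0.747) and by 1.37 on HFC (SE 0.39, p = 0.00509, adjusted p = 0.212), but neither drop passed the test. Set against week 0 alone, Hadha kept its sign, with differences of -0.46 (SE 1.08) and -0.41 (SE 0.65). Without the HFC week 0 array the difference on HFC was -1.68 (SE 0.37) and passed (limma, adjusted p = 0.0493). The early arrays of that fit were those of days 6, 10 and 14, all scanned after the late ones. Scan period and time cannot be told apart in it. More probes passed in some fits without 1 time point, with counts given under the dependence on processing.

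The other members on HFC had the differences -1.53 for Cpt2 (SE 0.71, adjusted p = 0.292), -1.24 for Acadm (SE 0.55, adjusted p = 0.283), -1.17 for Ppara (SE 0.76, adjusted p = 0.407) and -0.75 for Hadhb (SE 0.40, adjusted p = 0.334). Acadl, Acadvl and Cpt1a had smaller negative differences (-0.54, -0.60 and -0.34), and Cpt1b had a positive one (0.21). For Acadm, Cpt2 and Ppara the HFC week 0 array was the lowest of the 4 early ones. When the arrays were weighted by limma's estimate of their quality, 5 members passed on HFC (Cpt2, Acadm, Hadha, Hadhb and Ppara, all lower late, adjusted p from 0.0127 to 0.0350), together with 7504 of the 29397 probes tested. On LFC the differences other than that of Hadha ran from -0.90 (Acadvl, SE 0.65) to 0.00 (Cpt1b, SE 0.51).

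The difference between HFC and LFC did not itself change with time by a margin the test could detect. No member passed (0 of 29168 probes, 0%), 3 of 9 had a larger HFC minus LFC difference late, and the median was -0.10 beside 0.15 for all probes. No member had an unadjusted p under 0.05, beside 5.14% of probes. The 95% intervals were wide, for example -3.44 to 1.22 for Cpt2 and -0.72 to 1.65 for Cpt1a. Without the 2 arrays Cpt1b had the difference 1.14 (SE 0.42, p = 0.0222, adjusted p = 0.688), and its dimmer probe 0.64 (SE 0.33).

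The comparisons of HF5, HF20 and HF75 with HFC ask what KAL-1 adds to the high fat diet, over weeks 3 to 18. They share the 6 HFC arrays. No member passed for any dose or for the mean of the doses (each 0 of 31450 probes, 0%), and none had an unadjusted p under 0.05, beside 3.42%, 4.84%, 1.50% and 1.75% of all probes for HF5, HF20, HF75 and the mean. With HF20, 8 of 9 members had a higher mean than on HFC, with a median of 0.63 beside -0.07 for all probes. The members that differed most were Acadm (1.00, SE 0.54, p = 0.0743), Ppara (0.93, SE 0.65, and 0.35 without the 2 arrays), Cpt2 (0.88, SE 0.60, and 0.42 without them) and Hadha (0.77, SE 0.38, p = 0.0558), all with an adjusted p of 0.780. The 95% interval of Acadm ran from -0.11 to 2.11 and that of Hadha from -0.02 to 1.57.

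By array, Acadm on HF20 was 3.92, 5.36, 3.26, 5.58, 3.35 and 5.69 at weeks 3, 6, 9, 12, 15 and 18, against 5.17, 3.40, 3.12, 2.56, 2.81 and 4.10 on HFC. It was higher with HF20 in 5 of 6 weeks, by the widest margin in weeks 6 and 12, and lower in week 3. Without the 2 arrays the median difference of the members with HF20 was 0.33, with 8 of 9 still higher, and Acadm had 0.62 (SE 0.43, adjusted p = 0.950). Cpt1a was higher with HF20 than on HFC in 6 of 6 weeks (0.34, SE 0.31, limma, adjusted p = 0.790), although the margin at week 15 was 0.0016. At least 0.518% of all probes were higher in every week, a lower limit since probes with no value in some week could not be counted.

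With HF75 8 of 9 members were higher than on HFC (median 0.42 beside -0.01) and 7 of 9 without the 2 arrays (median 0.13). Cpt2 had the largest difference (0.83, SE 0.60), followed by Hadhb (0.67, SE 0.47) and Acadvl (0.66, SE 0.46). Without the 2 arrays these were 0.38, 0.37 and 0.29, and Ppara turned from 0.23 to -0.34. With HF5 7 of 9 were higher (median 0.07 beside -0.03), but without the 2 arrays 1 of 9 was (Hadha, 0.04, SE 0.30) and the median was -0.19. For the mean of the 3 doses the median was 0.47 (8 of 9 higher) and 0.11 without the 2 arrays (6 of 9 higher). No ordering of the doses was tested.

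**Figure D3:**
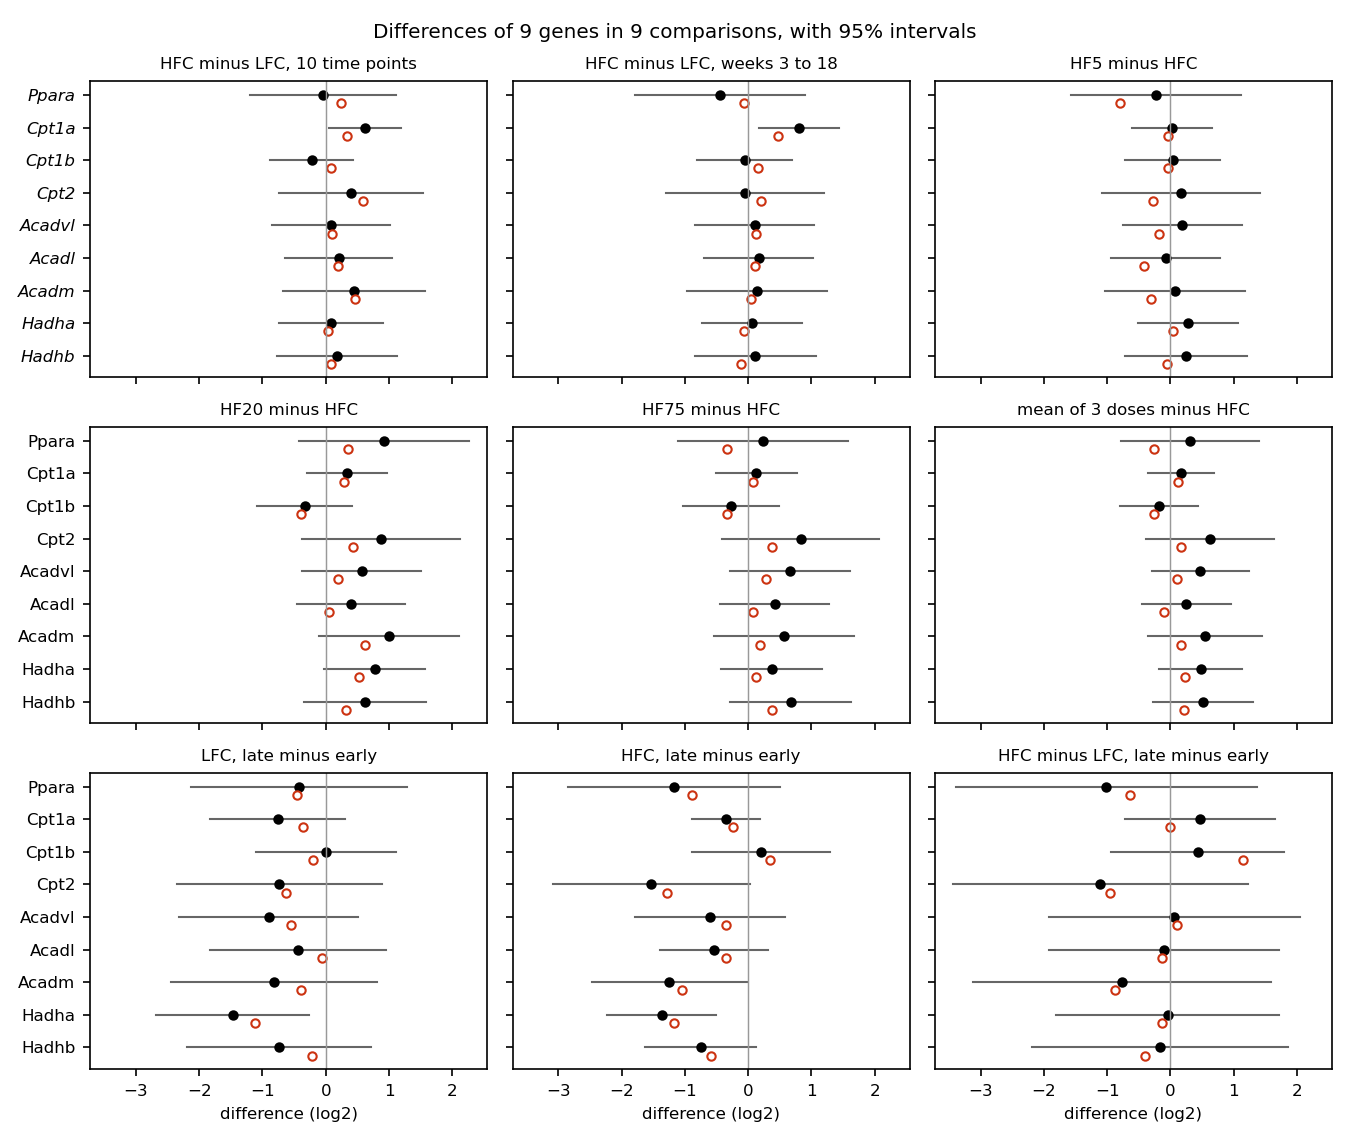
Difference of each gene in each of the 9 comparisons on the log2 scale. Black points and lines give the value and its 95% interval with all arrays, and open red points the value without the 2 arrays of doubtful quality (LFC week 3 and HFC week 12). Nearly every interval crosses 0, and with HF20 the median of the members is 0.63 with all arrays and 0.33 without the 2.

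The swings that the members shared were larger than the differences between diets. Over the 37 arrays the level of each gene was compared with the mean of the other 8, as a description without a test, since arrays share scan dates, time points and tissue make-up. Pearson's r was 0.94 for Cpt2, 0.94 for Acadm, 0.90 for Hadhb, 0.84 for Acadl (36 arrays), 0.84 for Ppara, 0.82 for Acadvl and 0.76 for Hadha, but 0.17 for Cpt1b and -0.37 for Cpt1a. Within time points, after the mean of each time point was removed, r was 0.93 for Cpt2, 0.90 for Acadm, -0.14 for Cpt1b and -0.06 for Cpt1a. Between pairs of members r ran from -0.43 (Cpt1a with Acadl) to 0.94 (Cpt2 with Acadm), with a median of 0.67 over 36 pairs.

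**Figure D4:**
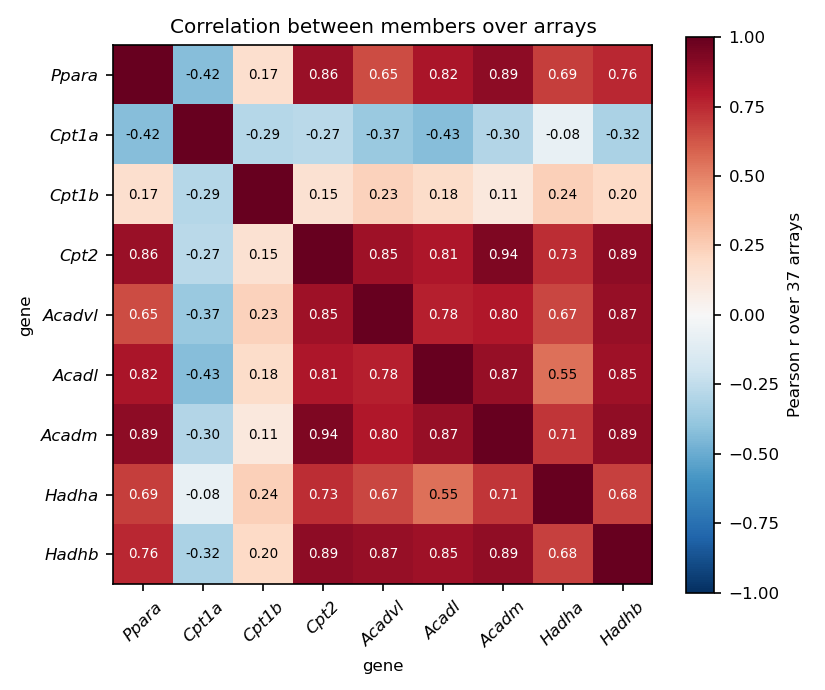
Pearson's r between the levels of each pair of the 9 genes over the 37 arrays, in red for positive and blue for negative values. Ppara, Cpt2 and the dehydrogenases and trifunctional subunits form a block of positive values (0.55 to 0.94), and values in the rows of Cpt1a and Cpt1b lie between -0.43 and 0.24.

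The mean of the members, with each gene centred on its own mean, was highest on LFC day 6 (1.36), LFC week 12 (1.10), HF20 week 18 (0.92), HF75 week 12 (0.89) and HFC day 6 (0.88) and lowest on LFC week 15 (-0.90), HF5 week 12 (-0.81) and HF5 week 15 (-0.78). High and low arrays occurred within single weeks. At week 12 LFC, HF20 and HF75 were high and HF5 low, all scanned on the same date. The titles of these 3 high arrays and of LFC day 1 end in EA and a number, a form that the labels do not define. These 4 arrays took ranks 2, 4, 7 and 8 among the 37. Whether the form of the title marks a difference in the tissue sampled was not tested. Without week 12 the median difference of the members was 0.32 for HF20, 0.11 for HF75 and 0.01 for HF5.

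Other genes of fat oxidation moved with the members. The list held 24 further enzymes and carriers of mitochondrial oxidation, and its mean over arrays correlated with the mean of the members at r = 0.98 (37 arrays). For 16 genes of peroxisomal oxidation r was 0.97, for 18 of respiration and the TCA cycle 0.97, for 15 of fatty acid synthesis 0.92 and for the targets and partners of Ppara 0.92. Among the genes whose levels followed the mean of the members most closely were Coasy (r = 0.97), which makes coenzyme A, Echs1 (0.97, 36 arrays), the enoyl-CoA hydratase for short chains, LOC634990 (0.97) and Pfkfb1 (0.97). Of 20287 genes 1107 (5.46%) had r over 0.8, and the median r was 0.01. Of the 9 members 6 had r over 0.8 with the mean of the others.

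No gene of these lists passed any comparison. Late against early on HFC, 24 of 24 genes of the further oxidation list were lower (median -0.98 beside 0.02 for all probes). An unadjusted p under 0.05 was reached by 11 of them, beside 17.3% of all probes. Among the 24 were Slc25a20, the carnitine carrier (-1.46, SE 0.42, limma, adjusted p = 0.216), and Acads, the dehydrogenase for short chains (-1.95, SE 0.62, adjusted p = 0.218). Against week 0 the drop was not seen, since the mean level of the list was 0.46 on the HFC week 0 array and 0.47 ± 0.64 (n = 6) on HFC late. On LFC 23 of 24 were lower, none of them at an unadjusted p under 0.05 (median -0.67 beside -0.09). With HF20 23 of 24 were higher than on HFC (median 0.76 beside -0.07, and 0.46 without the 2 arrays). An unadjusted p under 0.05 was reached there by 3 (Acad10, Acad11 and Pccb), beside 4.84% of all probes. With HFC against LFC at 10 time points 20 of 24 were higher (median 0.20 beside 0.03), and over weeks 3 to 18 10 of 24 were (median -0.04 beside 0.06).

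Peroxisomal genes had the same signs. On HFC 16 of 16 were lower late (median -0.66), with Ehhadh at -2.13 (SE 0.68, limma, adjusted p = 0.218), and with HF20 15 of 16 were higher than on HFC (median 0.53). Of the genes of respiration and the TCA cycle 18 of 18 were lower late on HFC (median -0.86) and 18 of 18 higher with HF20 (median 0.49). The mean levels of these lists on the HFC week 0 array were 0.46 and 3.46, below their means of 0.59 and 3.51 on HFC late, so that their lower late values also rested on days 6 to 14. The 18 tested genes of the Ppara list were mixed, with 12 lower late on HFC (median -0.42) and 12 of 19 higher with HF20 (median 0.36). Fgf21, a hormone induced by Ppara in liver, was 1.15 log2 units lower on HFC than on LFC over 10 time points (SE 0.49, limma, p = 0.0387, adjusted p = 0.998). The coactivator genes Ppargc1a and Ppargc1b had r of 0.88 and 0.86 with the members, and Pdk4 and Angptl4, known as targets of Ppara, -0.03 and -0.41. These and the single markers below were picked out after their values had been seen.

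Genes that define cell types were set beside the members as well. The mean of 10 adipocyte markers correlated with the mean of the members at r = 0.82. Among them Retn was at 0.92, Lipe at 0.91, Plin1 at 0.87 and Adipoq at 0.73, but Cfd at -0.21 and Fabp4 at -0.37. The mean of the brown adipocyte markers had r = 0.66 (0.45 within time points). Among them Ppargc1a had 0.88, Cox8b 0.87, Cox7a1 0.78 and Cidea 0.67, but Ucp1, which defines that cell, had -0.23. The mean of the liver markers had 0.70 (0.39 within time points), at levels between -6.45 and -2.80. The means of skeletal muscle (-0.21) and epididymis (-0.21) markers had weakly negative values, that of mesothelium markers 0.24 (0.42 within time points), and that of macrophage markers -0.24 over all arrays but 0.27 within time points. Single markers spread widely, with r from -0.86 to 0.32 for 9 macrophage genes and from -0.76 to 0.86 for 8 skeletal muscle genes. The mean level of the adipocyte list was 4.79 ± 0.58 for HFC early and 3.90 ± 1.05 for HFC late, and 4.67 ± 0.88 for HF20, so that it was lower late on HFC and higher with HF20, as 8 of 9 members were in each comparison. On LFC the list changed little, from 4.01 ± 1.02 early to 3.91 ± 0.91 late (median difference -0.11). There 8 of 9 members were lower late as well (median -0.74). The 75th percentile signal of the array had r = 0.45 with the mean of the members, and the share of spots well above background 0.35. The median rank correlation of an array with the other arrays had r = -0.52 with it (-0.57 within time points), so that arrays with high members were less like the rest. The part of these in the members' levels was not tested.

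**Figure D5:**
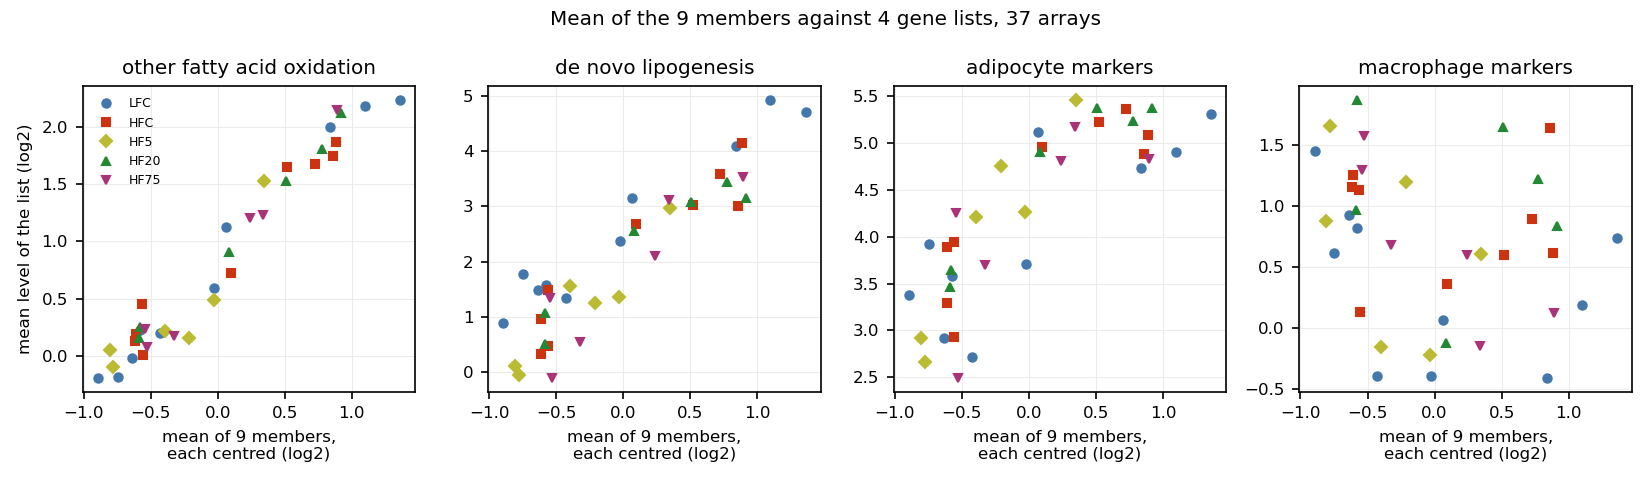
Mean level of 4 gene lists (log2) on each of the 37 arrays against the mean of the 9 members, each centred on its own mean, with 1 symbol per diet. Over the 37 arrays together, other fatty acid oxidation genes (r = 0.98), fatty acid synthesis genes (0.92) and adipocyte markers (0.82) rise with the members, and macrophage markers have r = -0.24.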

How the data were processed

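Epididymal adipose RNA was hybridised to 39 one-colour Agilent arrays. The deposited scanner intensity values had been background-subtracted within each array by Agilent Feature Extraction (version 10.5.1.1 per the file headers, 9.1 per the labels), and the authors also deposited a table of log2 ratios to LFC within each time point, which was used as an alternative. Arrays have no read depth, so precision rests on their number. Log2 signals were scaled to the 75th percentile of each array, outlier spots were left out and spots of a probe averaged. Probes well above background on 10 of 20, 6 of 30, 5 of 11 or 5 of 10 arrays of a fit were tested with limma 3.58.1 in R 4.3.3 (two-sided, Benjamini-Hochberg over all probes, threshold 0.05), with the time point as a block between diets. The fits were tested on simulated data. All 9 members are named in every comparison, other genes by smallest p or by likeness unless stated. The members, gene lists and tests were chosen with earlier results of these data known. The alternatives covered background correction, scaling, filters, probes, single time points, arrays of doubtful quality, blocks, array weights and the methods' t-test. Scan date as a block was added after seeing the data. One gene among those most like the members is not reported here.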

Additional observations from a re-analysis of the deposited data

Results flagged for a closer look

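Among 63 groups of levels (9 genes in 7 groups), 3 held 1 array far from the others, judged by the gap to the nearest array divided by the range of the group, and chance flags about 1 in 20 groups. For Acadm on HFC early the ratio was 0.967, since the week 0 array (3.41) lay below those of days 6, 10 and 14 (5.26, 5.20 and 5.20). For Ppara on HFC early the ratio was 0.921, with week 0 at -3.15 and the other arrays between -1.14 and -0.97. For Cpt1a on HFC late the ratio was 0.632, with the week 12 array, one of the 2 of doubtful quality, at 1.36 and the other 5 between 1.83 and 2.10. The HFC early arrays were all scanned on different dates, week 0 before the others, and the part of this in the values was not tested.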

How the results depend on the processing

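Under 27 settings 1695 differences of members were recomputed, of which 152 changed sign and 6 passed the test, all of them late against early on HFC. With array weights 5 members passed there, and leaving out 1 time point at a time gave from 0 to 1 (Hadha, without week 0). The number of probes past the threshold on HFC (0 in the reported fit) was 1 with quantile scaling, 41 with median scaling, 7504 with array weights and 1 with week 0 as the early array, and from 0 to 745 without 1 time point. On LFC (149) it was 0 with normexp background, 97 with quantile scaling, 78 with median scaling, 82 with outlier spots kept, 40 when a probe had to exceed background on all arrays, 324 with array weights, 0 with week 0 as the early array, 0 for a linear trend over days, and from 48 to 210 without 1 time point. The change of the HFC minus LFC difference gave 1 probe with week 0 as the early time point, and the mean of the doses from 0 to 1 without 1 time point. With week 0 as the early array, 6 of 8 lower members on HFC and 5 of 8 on LFC turned positive, among them Acadm on HFC from -1.24 to 0.11 (SE 0.92). The causes were not tested. Cpt1a on HFC against LFC stayed positive in 24 settings (0.25 to 0.75, adjusted p from 0.693 to 1.00). With 1 array per diet and time point, spread between mice was not measured, and spots near background or saturated limit single levels.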

Other observations

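Genes of fatty acid synthesis rose and fell with the members over arrays and were lower on HFC in the diet comparison of the late weeks. Over weeks 3 to 18 the mean on HFC was lower than on LFC for 15 of 15 of them (median -0.74 beside 0.06 for all probes, and -0.82 without the 2 arrays of doubtful quality). Of these 3 had an unadjusted p under 0.05, beside 2.31% of all probes, and none passed the threshold. Over the same weeks 6 of 9 members had a higher mean, but their median (0.11) was negative without week 3. Of the 24 further oxidation genes 10 had a higher mean (median -0.04). With HF20 15 of 15 synthesis genes had a higher mean than on HFC (median 0.89 beside -0.07, and 0.55 without the 2 arrays). Late against early on HFC 15 of 15 had a lower mean (median -1.42 beside 0.02), against early arrays of which all but week 0 were scanned in another period.

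Markers of macrophages had a higher mean on HFC than on LFC over 10 time points for 8 of 9 genes (median 0.59 beside 0.03). Among them 1 had an unadjusted p under 0.05, beside 3.05% of all probes, and none was past the threshold. Markers of the mesothelium, the cell layer that covers the fat pad, had a higher mean for 5 of 5 genes (median 0.86). An unadjusted p under 0.05 was reached by 3, beside the same 3.05% of all probes, and none was past the threshold. Markers of the epididymis had a lower mean on HFC for 7 of 7 tested genes (median -1.44 without the 2 arrays of doubtful quality).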
